A study of Mus musculus with 8 samples.

Results

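The genes that encode the proteins of the cytosolic ribosome were followed in RNA-Seq libraries of Lewis lung carcinoma (LLC) cells, a mouse lung cancer line, with or without the asparaginyl hydroxylase FIH. The members were the protein-coding rows of the count table whose names start with Rpl or Rps and a digit, together with Rplp0, Rplp1, Rplp2 and Rpsa, without the Rps6k kinases, the pseudogenes and Rps19bp1. This rule gave 86 of the 53700 genes in the table: 31 proteins of the small subunit, 46 of the large subunit and 9 paralogs or retrogenes. Of these, 81 passed the filter on low counts and were tested, among 13933 tested genes.

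WT and FIH-KO LLC cells were cultured for 16 hours either in normoxia, at 21% O2, or in hypoxia, at 1% O2, and each of these 4 groups has 2 libraries. FIH, encoded by Hif1an, hydroxylates the hypoxia-inducible factors and limits their activity, and the comparisons ask how its loss and low oxygen alter the transcriptome. FIH-KO cells were made with Cas9 protein and a guide to the second exon of Hif1an, followed by single-cell dilution, so clonal differences and loss of FIH cannot be told apart here. The sources used here do not say whether the 2 libraries of a group came from separate cultures, so p-values measure only the spread between these libraries.

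Totals ran from 14519731 to 18177016 counts per library. Hif1an held 1316 and 1389 counts in WT normoxia, 584 and 673 in FIH-KO normoxia, 1609 and 1231 in WT hypoxia and 729 and 784 in FIH-KO hypoxia, and was lower in FIH-KO cells in normoxia (log2 fold change -1.20, adjusted p = 3.1e-05, edgeR) and in hypoxia (-0.85, adjusted p = 0.00031). Of the epithelial markers, Epcam had no reads in any library and Cdh1 at most 1, while the keratins Krt8 and Krt18 were abundant. Vim and the other mesenchymal markers were present throughout, and of the leukocyte markers Ptprc, Cd3e, Adgre1 and Itgam had at most 3 reads in any library, while Cd68, a lysosomal protein abundant in macrophages, had 41 to 115 reads (group means 2.92 to 5.63 CPM).

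Each ribosome carries a single copy of most of these proteins, and their genes are among the most actively transcribed in growing cells. Most of their mRNAs begin with a terminal oligopyrimidine (TOP) tract, a C followed by a run of pyrimidines at the very 5′ end, through which mTORC1 and Larp1 control their translation and stability. Free ribosomal proteins, above all Rpl5 and Rpl11, bind Mdm2 and so connect ribosome assembly to p53. Several members have paralogs, such as Rpl22l1 and Rps27l, that can replace the usual protein or are made in particular tissues.

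The sequences around the transcription start are shown for the members on which the comparisons turn, because the start carries the TOP tract. RefSeq promoter sequences (GRCm38.p6) were matched to 66 of the 86 members. Each line gives the 15 bases on either side of the annotated start, 5′ to 3′ on the gene's own strand, and capitals mark a TOP-like run, defined as a C within 5 bases of the start followed by at least 4 pyrimidines. Rps27 (chr3:90213634-90213663, minus strand), Rpl34 (chr3:130730323-130730352, minus), Rps3a1 (chr3:86142654-86142683, minus), Rpl22l1 (chr3:28805493-28805522, plus), Rpsa (chr9:120127751-120127780, plus) and Rpl14 (chr9:120571502-120571531, plus) were lower in FIH-KO cells.
Rps27: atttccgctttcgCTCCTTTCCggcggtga
Rpl34: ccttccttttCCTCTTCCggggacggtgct
Rps3a1: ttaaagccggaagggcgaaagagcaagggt
Rpl22l1: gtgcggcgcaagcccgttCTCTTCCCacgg
Rpsa: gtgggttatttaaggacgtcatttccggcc
Rpl14: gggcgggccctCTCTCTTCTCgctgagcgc
Rpl35 (chr2:39005117-39005146, minus), Rpl35a (chr16:33056467-33056496, plus), Rpl10 (chrX:74270801-74270830, plus) and Rpl36a (chrX:134585639-134585668, plus) were higher in FIH-KO cells in hypoxia.
Rpl35: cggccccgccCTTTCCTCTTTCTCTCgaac
Rpl35a: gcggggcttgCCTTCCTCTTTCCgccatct
Rpl10: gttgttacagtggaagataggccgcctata
Rpl36a: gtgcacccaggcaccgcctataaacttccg
Rps27l (chr9:66946071-66946100, plus) fell in hypoxia and Rpl13a (chr7:45128731-45128760, minus) rose.
Rps27l: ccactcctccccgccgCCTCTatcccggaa
Rpl13a: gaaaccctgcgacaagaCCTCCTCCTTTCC

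A TOP-like run was found at any annotated start of 31 of the 66 matched members (47%). The same search over all 27025 genes with RefSeq starts found it in 21.2% of the genes. The lines above show that members with and without the run stood on either side: Rpl34 and Rpl35 both carry it, and Rpsa and Rpl10 both lack it in these windows. The core of the hypoxia-response element, ACGTG or GCGTG on either strand, was present from 250 bases before to 50 bases after the start in 68.2% of the matched members and in 46.7% of all genes, and the E-box CACGTG, which contains ACGTG, in 9.09% and 8.09%. The median log2 fold change of FIH-KO against WT cells in normoxia was -0.16 for the 30 tested members with a TOP-like run. It was -0.17 for the 31 without. Both classes depend on the annotated start being exact. Rpl4 and Rpl13, classed as without, have a pyrimidine run further upstream of that start. Members classed as without may therefore still have TOP mRNAs, and the part of the TOP tract in these medians was not tested.

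The share of all reads that fell on the 86 genes was 6.27% and 6.29% in the WT normoxia libraries, 5.96% and 5.45% in FIH-KO normoxia, 6.04% and 5.40% in WT hypoxia, and 6.22% and 5.10% in FIH-KO hypoxia. The group means were 6.28% ± 0.0127 in WT normoxia, 5.71% ± 0.361 in FIH-KO normoxia, 5.72% ± 0.450 in WT hypoxia and 5.66% ± 0.793 in FIH-KO hypoxia (SD, n = 2 each). WT normoxia was the highest group, and all of its libraries lay above the 6 others, the closest of which was an FIH-KO hypoxia library. Among the other 3 groups the libraries overlapped, and their means differed by less than the spread within a group. In RNA from bulk cultures, a lower share in every cell and a lower share in some of the cells cannot be told apart.

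**Figure D1:**
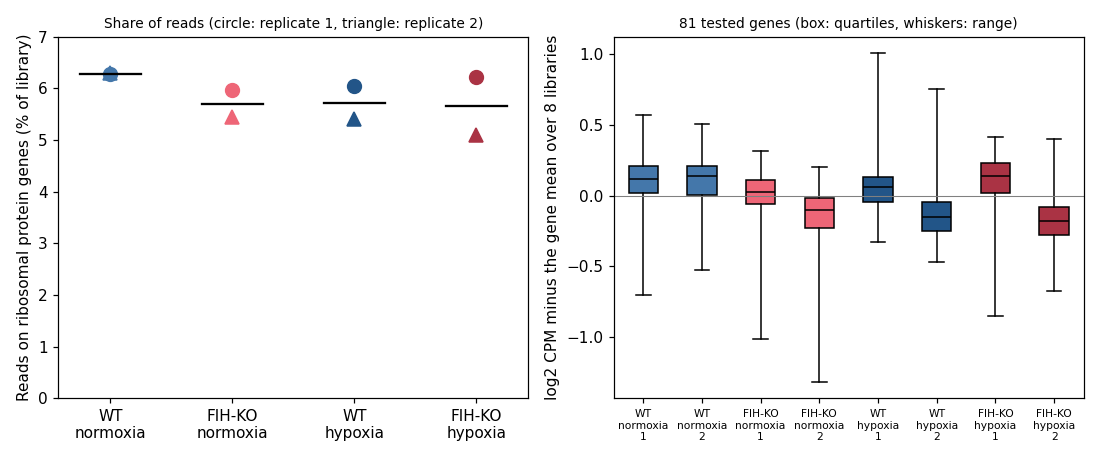
Left, reads on the 86 ribosomal protein genes as a percentage of each library, with circles for replicate 1, triangles for replicate 2 and a bar for the mean of each group. Right, log2 CPM of the 81 tested genes in each library minus the gene's mean over the 8 libraries (box, quartiles and median, whiskers, range): in the FIH-KO normoxia, WT hypoxia and FIH-KO hypoxia groups the 2 boxes are offset, with medians of 0.14 and -0.18 in FIH-KO hypoxia.

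Ribosomal protein genes moved together between libraries of the same group. In FIH-KO hypoxia, 76 of the 81 tested members were higher in replicate 1 than in replicate 2, by a median of 0.31 on the log2 scale, in WT hypoxia 77 were (0.19) and in FIH-KO normoxia 74 (0.15). WT normoxia showed no such offset, with 40 of 81 higher in replicate 1 and a median difference of 0.00. The higher library was thus replicate 1 in all 3 groups with an offset. Over all tested genes the medians within these groups lay between 0.00 and 0.01, and over 1174 other protein-coding genes with coding sequences within the quartiles of the members (363 to 624 bases) between 0.00 and 0.03. Of 18 other genes with TOP mRNAs, 17 were higher in replicate 1 in WT hypoxia and 16 in FIH-KO hypoxia, but only 10 in FIH-KO normoxia and 9 in WT normoxia. This joint offset sets the precision of any statement on the genes as a group, and the part of RNA quality, cell density or culture in it was not tested.

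Levels were compared between genes as CPM (counts per 1000000 counts of the tested genes, scaled by TMM) per kilobase of coding sequence, in WT normoxia. Over 74 subunit proteins the level ran from 746 for Rpl15 to 5090 for Rpl41, with a median of 1510 and quartiles of 1140 and 1880. Untranslated regions are not part of this length, so a gene with a short coding sequence, such as Rpl41 (138 bases), may stand too high. The paralogs were lower: Rps27l stood at 586 ± 65.2, Rpl7l1 at 314 ± 19.9 and Rpl22l1 at 308 ± 10.4 CPM per coding kilobase (SD, n = 2), against 1366 ± 12.7 for Rps27, 2306 ± 1.61 for Rpl7 and 864 ± 13.5 for Rpl22. Rpl7l1 and Rpl22l1 did not differ beyond their spread. The testis and muscle paralogs Rpl10l, Rpl39l and Rpl3l had 3 reads or fewer in every library and were not tested, and neither was the retrogene Rps23rg1, with 0 to 7 reads. Rps4l is a pseudogene in the table and is no member.

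A few subunit genes had almost no reads. Rpl24, a large subunit protein that reaches towards the small subunit, had 3 to 6 reads per library and was not tested. Rps10, a small subunit protein, had 24 to 52, and Rpl36al, the paralog of Rpl36a, had 6 to 30. In the GENCODE annotation, 83.4% of the coding sequence of Rpl24, 92.1% of that of Rps10 and 95.3% of that of Rpl36al lies inside another gene on the same strand, and these other genes had at most 2 reads in any library. Rpl13a, with 97.5% shared, stood at 69.9 CPM per coding kilobase. No other member shared more than 13.6%, and the lowest of the other subunit proteins was Rpl15. The low counts of these members are therefore given as measured and not as the abundance of their mRNAs. Genes on the opposite strand overlap 36.6% of the coding sequence of Rpl22l1, 28.5% of that of Rpl35, 24.5% of that of Rps25 and 12.8% of that of Rpsa, and since the strand setting of the counting is not given, reads of the overlapping genes may not be told apart there. Most members also have sequence copies elsewhere: for a median member, 88% of the 50-base stretches of its coding sequence occur at another place in the genome, and how reads mapping to several places were treated is not given in the sources used here.

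**Figure D2:**
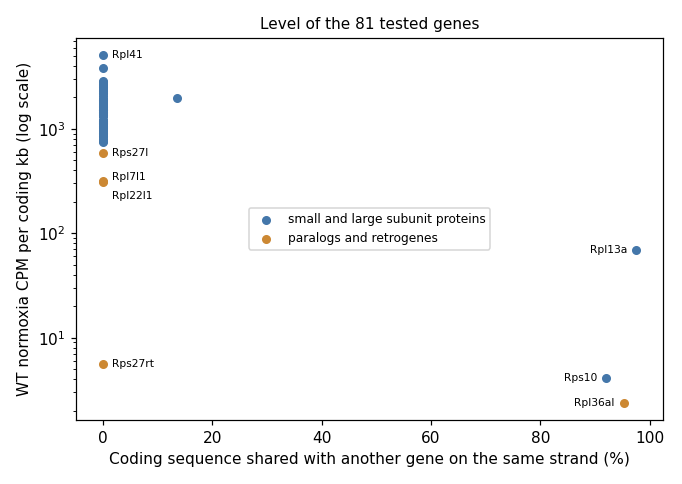
Level of the 81 tested genes in WT normoxia, in CPM per kilobase of coding sequence on a log scale, against the percentage of the coding sequence that lies inside another gene on the same strand. Rpl13a, Rps10 and Rpl36al, all above 90%, stand at 69.9, 4.09 and 2.39, while the 74 subunit proteins under 50% stand at 746 or more.

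In normoxia, 10 of the 81 tested members were lower in FIH-KO than in WT cells and 0 were higher at an adjusted p under 0.05 (edgeR). Over all tested genes 13% were lower and 15.2% higher, against 12.3% and 0% of the members. The median log2 fold change of the members was -0.16, beside 0.00 for all tested genes, and 65 of the 81 values were below 0. The 1174 other protein-coding genes of like coding length had a median of -0.02 here, with 12.7% lower and 14.7% higher. Of the 31 small subunit genes 5 fell (median -0.12), of the 45 tested large subunit genes 4 fell (median -0.17), and of the 5 tested paralogs and retrogenes only Rpl22l1 fell. All libraries of WT normoxia had the higher share of reads given above. Scaled to the total of the ribosomal protein genes, 2 members were still called lower, Rpl22l1 and Rps27, beside 598 of all tested genes. The medians were then 0.00 for the members and 0.16 for all tested genes, a shift that this scaling makes by construction.

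The lowest of the called members lie on chromosome 3. Rpl22l1, the paralog of Rpl22 (chromosome 3, 28859585 to 28861573, GRCm39), stood at 114 and 109 CPM in WT normoxia and at 38.2 and 60.1 in FIH-KO normoxia, a log2 fold change of -1.18 (SE 0.23, adjusted p = 0.0026). Rps27, a zinc-finger protein of the small subunit (chromosome 3, 90119819 to 90120977), stood at 346 and 342 CPM against 231 and 196 (-0.69, SE 0.13, adjusted p = 0.0021). In either case the FIH-KO libraries lay below both WT libraries. A small adjusted p mostly goes with such separation. In genes picked for it, the separation is therefore no further evidence, here and below. How often libraries separate in this way over all tested genes was not counted.
Rpl34, of the large subunit (130519106 to 130524155), fell from 422 and 416 CPM to 293 and 267 (-0.58, SE 0.13, adjusted p = 0.0055). Rps3a1, the mouse form of a small subunit protein at the mRNA exit (86045244 to 86050009), fell from 1159 and 1118 to 824 and 741 (-0.54, SE 0.12, adjusted p = 0.0061). These 4 genes are all the members on chromosome 3. The 679 other tested genes of that chromosome had a median of -0.35, with 35.1% lower and 5.15% higher (the part of this chromosome-wide value in the members' values was not tested). Without the chromosome 3 members, 6 of 77 members were lower (7.79%, against 13% of all tested genes) and the median was still -0.16.

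Members on chromosomes 9, 5 and 11 made up the rest of the calls. Rpsa, the small subunit protein also known as the laminin receptor (chromosome 9, 119956755 to 119962787), fell from 2182 and 2251 CPM to 1568 and 1546 (-0.51, SE 0.12, adjusted p = 0.0082). Rpl14, of the large subunit (chromosome 9, 120400489 to 120403866), fell from 835 and 881 to 626 and 641 (-0.44, SE 0.11, adjusted p = 0.012). Rps25, a small subunit protein used in initiation on viral internal ribosome entry sites, fell from 738 and 714 to 590 and 517 (-0.39, SE 0.12, adjusted p = 0.026). The 8 members on chromosome 9 were all below 0, with a median of -0.37, beside -0.17 for the 764 other tested genes there.
Rps27a, which is made as a fusion with ubiquitin (chromosome 11), fell from 1101 and 1045 CPM to 825 and 745 (-0.45, SE 0.12, adjusted p = 0.014). Rpl9, of the large subunit (chromosome 5), fell from 696 and 666 to 521 and 474 (-0.45, SE 0.11, adjusted p = 0.0090). Rpl6, also of the large subunit and on chromosome 5, was the weakest call (-0.35, SE 0.12, adjusted p = 0.042) and is named here after its values were seen. In each of these genes both FIH-KO libraries lay below both WT libraries, which in called genes is no further evidence. On chromosomes 5 and 11 the other tested genes had medians of -0.10 and -0.05, and the 5 and 7 members there medians of -0.35 and -0.24.

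Of the 10 calls in normoxia, those of Rpl22l1, Rps27 and Rpl34 were kept whichever of the 4 libraries was left out. Without WT normoxia replicate 1 the adjusted p was 0.05 for Rps3a1, 0.075 for Rpl9, 0.052 for Rpl14, 0.13 for Rps25, 0.099 for Rps27a and 0.14 for Rpl6, and 4 members were called. Without WT normoxia replicate 2 it was 0.058 for Rpsa, 0.086 for Rpl14 and Rps25, 0.054 for Rps27a and 0.15 for Rpl6, and 5 members were called. Without FIH-KO normoxia replicate 1 it was 0.058 for Rpl14 and 0.095 for Rpl6, and without FIH-KO normoxia replicate 2 it was 0.11 for Rps25, 0.06 for Rps27a and 0.10 for Rpl6. The directions did not change.

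**Figure D3:**
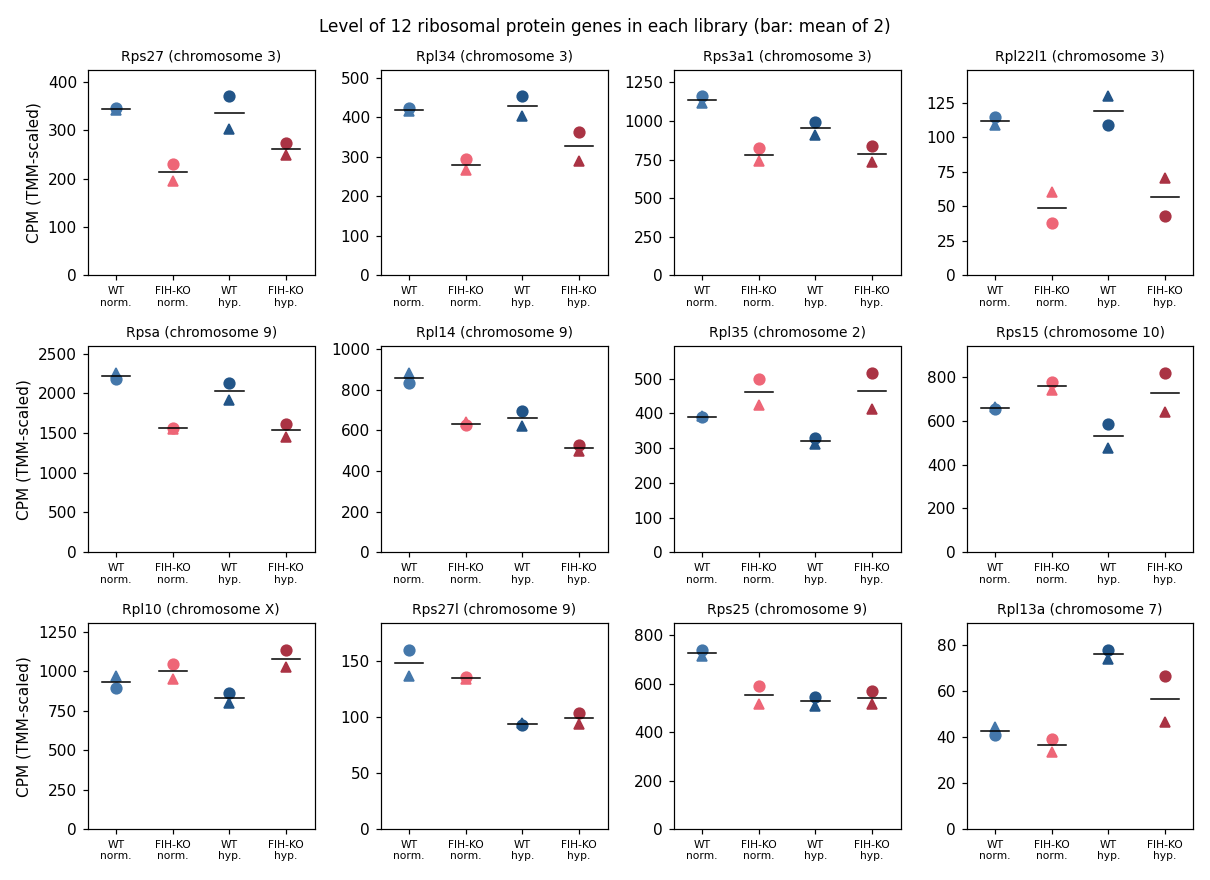
CPM of 12 members in each library (circles, replicate 1, triangles, replicate 2, bars, mean of 2), each panel with an axis from 0. The FIH-KO libraries of Rps27, Rpl34, Rps3a1, Rpl22l1, Rpsa and Rpl14 lie below the WT libraries in the same oxygen condition, and Rps27l falls and Rpl13a rises in hypoxia.

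In hypoxia, FIH-KO cells had 6 members higher and 4 lower than WT cells. The shares were 7.41% and 4.94% of the tested members, against 14.1% and 13.9% of all tested genes. The median of the members was 0.00, beside -0.03 for all tested genes, with 41 values above and 40 below 0. These counts rest on single libraries: without WT hypoxia replicate 2 no member was called higher and 2 were called lower, and without FIH-KO hypoxia replicate 2 the counts were 12 and 1, with a median of 0.17.

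The members that fell had also fallen in normoxia. Rpl22l1 stood at 109 and 130 CPM in WT hypoxia and at 42.7 and 70.8 in FIH-KO hypoxia (-1.07, SE 0.23, adjusted p = 0.0045). Rpl34 stood at 453 and 402 against 363 and 290 (-0.39, SE 0.13, adjusted p = 0.040), Rpsa at 2126 and 1920 against 1609 and 1456 (-0.40, SE 0.12, adjusted p = 0.027), and Rpl14 at 694 and 624 against 527 and 497 (-0.36, SE 0.11, adjusted p = 0.029). The groups did not overlap in any of them, which is no further evidence in genes picked by adjusted p. The call for Rpl22l1 was kept without each library in turn, whereas the others were lost without WT hypoxia replicate 1 (adjusted p = 0.29, 0.21 and 0.26), WT hypoxia replicate 2 (0.07, 0.054 and 0.056) or FIH-KO hypoxia replicate 2 (0.22, 0.082 and 0.086, in the same order). The other chromosome 3 members, Rps27 (-0.36, SE 0.13, adjusted p = 0.052) and Rps3a1 (-0.27, SE 0.12, adjusted p = 0.11), did not pass, and the other tested genes of chromosome 3 had a median of -0.41.

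Rpl35, a large subunit protein near the exit of the nascent chain (chromosome 2, 38891591 to 38895637), rose from 329 and 313 CPM in WT hypoxia to 516 and 412 in FIH-KO hypoxia (0.53, SE 0.13, adjusted p = 0.010). Rps15, a small subunit protein needed for export of its precursor, rose from 587 and 477 to 817 and 640 (0.45, SE 0.14, adjusted p = 0.031). In both genes every FIH-KO hypoxia library lay above both WT hypoxia libraries, again in genes picked by adjusted p.
Rpl35a, of the large subunit, rose from 286 and 269 CPM to 390 and 324 (0.37, SE 0.12, adjusted p = 0.036). Rpl10, a large subunit protein that joins late in assembly and lies on the X chromosome (73314418 to 73316741), rose from 859 and 798 to 1132 and 1026 (0.38, SE 0.12, adjusted p = 0.031). Rpl36a, X-linked as well (133486372 to 133488901), rose from 282 and 252 to 365 and 319 (0.36, SE 0.12, adjusted p = 0.037). The other X-linked members, Rpl39 (0.29, SE 0.11, adjusted p = 0.075) and Rps4x (0.19, SE 0.12, adjusted p = 0.27), did not pass, and the 4 had a median of 0.32 beside 0.14 for the 467 other tested genes of the X chromosome. In normoxia the same 4 genes lay between 0.00 and 0.10 and none was called.
Without WT hypoxia replicate 2 all 6 calls were lost, among them those of Rpl35, Rps15, Rpl35a, Rpl10 and Rpl36a, with adjusted p of 0.076 for Rpl35, 0.23 for Rps15, 0.18 for Rpl35a, 0.17 for Rpl10 and 0.22 for Rpl36a. Without WT hypoxia replicate 1 those of Rpl35a (0.081), Rpl10 (0.066) and Rpl36a (0.057) were lost, and without FIH-KO hypoxia replicate 1 those of Rps15 (0.11), Rpl35a (0.12), Rpl10 (0.055) and Rpl36a (0.094). Scaled to the total of the ribosomal protein genes, Rpl35 and Rps15 were among the members called higher, and Rpl22l1 was called lower.

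**Figure D4:**
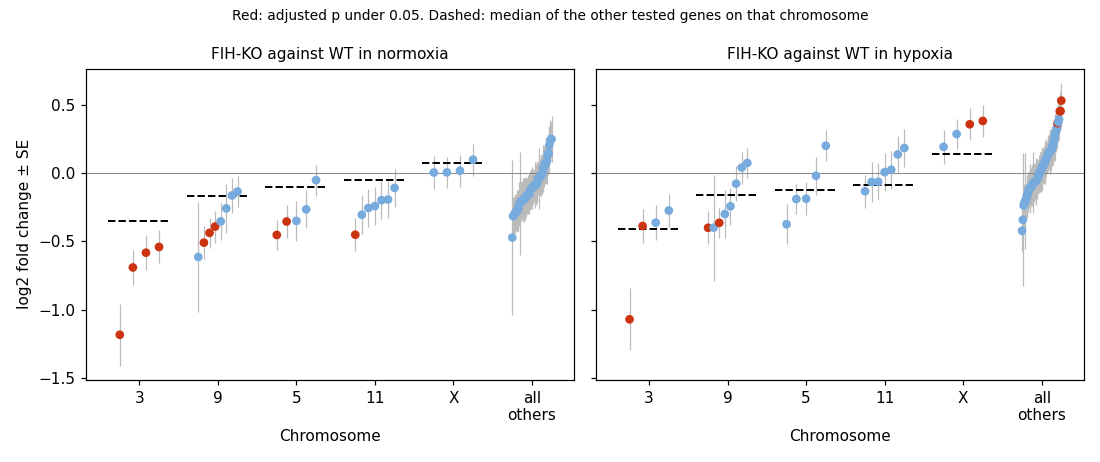
log2 fold change ± SE of FIH-KO against WT cells for the 81 tested members by chromosome, in normoxia (left) and hypoxia (right), with members at an adjusted p under 0.05 in red and a dashed line at the median of the other tested genes of that chromosome. The chromosome 3 members lie below 0 in either condition, where the dashed line stands at -0.35 and -0.41, and the X-linked members lie between 0.19 and 0.38 in hypoxia.

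In WT cells, 7 of the 81 tested members were lower in hypoxia than in normoxia and 1 was higher. This was 8.64% and 1.23% of the members, against 15.5% and 16.9% of all tested genes. The median of the members was -0.16, beside 0.00 for all tested genes, and 62 values were below 0. The WT normoxia libraries are the reference both here and in the comparison of genotypes in normoxia. The members stood high in both of them (median deviations of 0.119 and 0.14 from the gene means, log2), so the medians of these comparisons are not separate observations. The 1174 other protein-coding genes of like coding length had a median of -0.14, close to that of the members, and 23.3% of them were lower. The part of transcript length in the members' values was not tested. The count of members called lower depended on the fit: it was 1 when scaled to the total of the ribosomal protein genes, 12 with the replicate block, 13 in DESeq2, 15 with no filter on low counts and 19 with only the 4 libraries compared. Over all genes, 662 were lower with that scaling and 2109 of 13968 in DESeq2. The shares over all genes in the other fits are not given here, so these counts are not read as a result about the members.

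Rps27l, the paralog of Rps27 and a known p53 target (chromosome 9, 66853340 to 66856808), fell most. It stood at 159 and 136 CPM in WT normoxia and at 92.8 and 94.6 in WT hypoxia (-0.66, SE 0.11, adjusted p = 0.0011), with no overlap, and the call held without each library in turn. Rps25 fell from 738 and 714 CPM to 546 and 508 (-0.46, SE 0.12, adjusted p = 0.011) and Rps28, a small subunit protein near the mRNA exit, from 350 and 359 to 282 and 238 (-0.45, SE 0.12, adjusted p = 0.013). Their calls were lost without WT hypoxia replicate 2 (adjusted p = 0.082 and 0.13), that of Rps25 also without WT normoxia replicate 1 (0.057) and that of Rps28 without WT normoxia replicate 2 (0.072).
Rpl37a, of the large subunit, fell from 486 and 483 CPM to 401 and 333 (-0.40, SE 0.12, adjusted p = 0.025) and Rpl14 from 835 and 881 to 694 and 624 (-0.38, SE 0.11, adjusted p = 0.021). In all of these genes the hypoxia libraries lay below the normoxia libraries, again in genes picked by adjusted p. The calls of Rpl37a and Rpl14 were lost without WT normoxia replicate 1 (adjusted p = 0.087 and 0.057), WT normoxia replicate 2 (0.093 and 0.12) or WT hypoxia replicate 2 (0.21 and 0.15). Scaled to the total of the ribosomal protein genes, the calls of Rps25 (adjusted p = 0.16), Rps28 (0.19), Rpl37a (0.26) and Rpl14 (0.30) were lost as well, and those of Rps27l (0.049) and Rpl13a were kept. The count of members called lower was 2 without either WT normoxia library and 1 without WT hypoxia replicate 2.

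Rpl13a, a large subunit protein that also silences translation of inflammatory mRNAs in myeloid cells (chromosome 7, 44774982 to 44778263), was the member that rose. It held 635 and 748 reads in WT normoxia and 1389 and 1087 in WT hypoxia, or 40.8 and 44.3 against 77.9 and 74.2 CPM (0.84, SE 0.16, adjusted p = 0.0022), and the call held without each library in turn. These are the reads left to a gene that shares 97.5% of its coding sequence with another, as given above, so the change applies to the counted reads and their relation to the mRNA was not tested.

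In FIH-KO cells, hypoxia lowered Rps27l and raised Rpl13a, and no other member passed. These were 1.23% of the members in each direction, against 8% of all tested genes that were lower and 8.84% that were higher. The median of the members was 0.03, beside -0.03 for all tested genes, and it was 0.17 without FIH-KO hypoxia replicate 2. Rps27l stood at 135 and 134 CPM in FIH-KO normoxia and at 103 and 93.9 in FIH-KO hypoxia (-0.45, SE 0.11, adjusted p = 0.018). Rpl13a stood at 39.2 and 33.5 against 66.7 and 46.7 (0.64, SE 0.16, adjusted p = 0.018). The groups did not overlap in either gene, which is no further evidence in genes picked by adjusted p. The call of Rps27l was lost without FIH-KO normoxia replicate 1 (adjusted p = 0.087), FIH-KO normoxia replicate 2 (0.069) or FIH-KO hypoxia replicate 2 (0.059), and that of Rpl13a without FIH-KO normoxia replicate 2 (0.10) or FIH-KO hypoxia replicate 1 (0.11). Neither was called when scaled to the total of the ribosomal protein genes (0.13 and 0.05) or with only the 4 libraries compared.

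**Figure D5:**
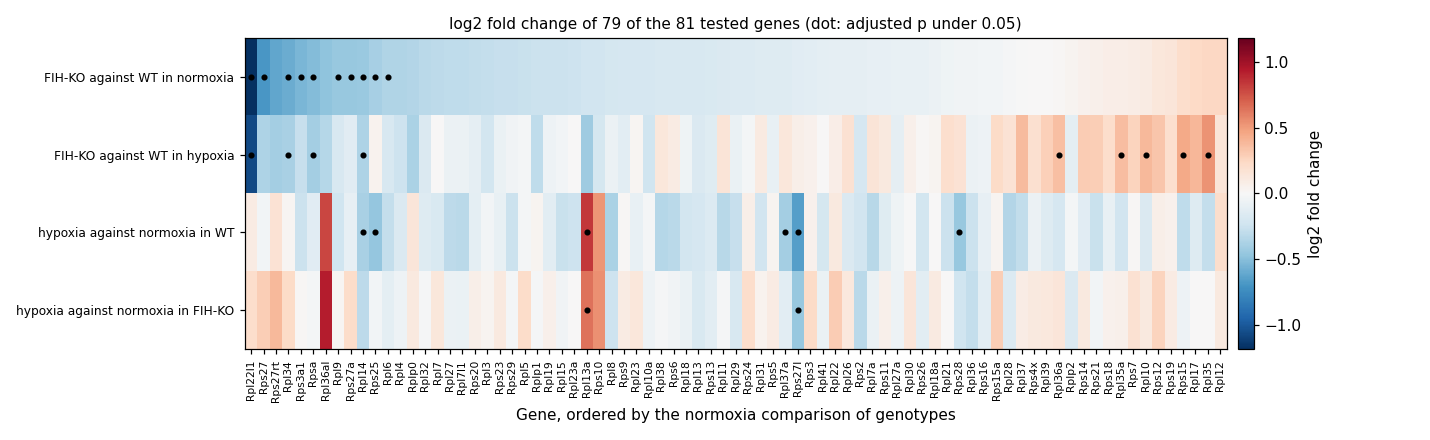
log2 fold changes of 79 of the 81 tested members (columns, ordered by FIH-KO against WT in normoxia) in the 4 comparisons (rows), in blue below 0 and red above 0, with a dot at an adjusted p under 0.05. The first row holds 10 dots, all on blue, the second 4 on blue and 5 on red, the third 5 and 1, and the fourth 1 and 1.

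Whether loss of FIH acted differently at 21% and 1% O2 was tested as an interaction, with positive values where FIH-KO minus WT was higher in hypoxia. It was called for 0 of the 81 members and 0 of all tested genes in edgeR (0% in each direction). At an unadjusted p under 0.05 there were 2 members, among them Rps25 (0.43, SE 0.16, adjusted p = 0.65), and 925 of all tested genes. DESeq2 called 0 members as well, 4 of which had an unadjusted p under 0.05, and called 12 genes higher and 25 lower over the whole table. The median of the members was 0.19 and 71 of 81 values were above 0, beside a median of -0.02 for all tested genes. The same WT normoxia libraries enter this difference, so it is not separate from the medians given above. The median of the members ranged from 0.10 to 0.34 with each library left out, the highest without WT hypoxia replicate 1. The members lowered in FIH-KO normoxia and not called in hypoxia were therefore not shown to differ between the conditions.

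The ratio of paralogs to their partners was taken within each library, so that it does not depend on the scaling between libraries. Per coding kilobase, Rpl22l1 stood at 36.1% and 35.2% of Rpl22 in WT normoxia, at 11.8% and 23.4% in FIH-KO normoxia, at 32% and 38.3% in WT hypoxia and at 10.2% and 23.8% in FIH-KO hypoxia. All FIH-KO libraries lay below all WT libraries, and the FIH-KO libraries differed from each other by more than the WT libraries did. Rpl22 itself was not called in any comparison. Rps27l was 45.9% and 39.8% of Rps27 in WT normoxia, 58.6% and 68.3% in FIH-KO normoxia, 25.1% and 31.3% in WT hypoxia and 37.8% and 37.7% in FIH-KO hypoxia. This ratio was higher in FIH-KO than in WT libraries in either oxygen condition and lower in hypoxia than in normoxia in either genotype. Mean Rps27 was 344 CPM in WT and 213 in FIH-KO normoxia, and 336 and 261 in hypoxia. Mean Rps27l was 147.6 and 134.4 CPM in normoxia, and 93.65 and 98.55 in hypoxia. The higher ratio in FIH-KO cells thus went with lower Rps27, and Rps27l was not called higher. Rpl7l1 stayed between 10.2% and 16.3% of Rpl7, and in either oxygen condition the WT values lay between the FIH-KO values.

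The remaining members with known roles outside the ribosome or in its regulation were not called in any comparison. Rpl5 and Rpl11, the Mdm2-binding proteins, had log2 fold changes of -0.27 (SE 0.14, adjusted p = 0.18) and -0.17 (SE 0.13, adjusted p = 0.37) in FIH-KO normoxia, and Rpl11 had -0.33 (SE 0.13, adjusted p = 0.075) with hypoxia in WT cells. Rps6, the substrate of the S6 kinases, had -0.32 (SE 0.14, adjusted p = 0.086) in that comparison, and Rps3, which also acts in DNA repair, 0.05 (SE 0.13, adjusted p = 0.79). Rps26, at the mRNA exit channel, lay between -0.22 and 0.01 in the 4 comparisons. Of the stalk proteins that recruit elongation factors, Rplp0 was at -0.35 (SE 0.15, adjusted p = 0.095) in FIH-KO normoxia and -0.37 (SE 0.15, adjusted p = 0.076) in FIH-KO hypoxia, while Rplp1 and Rplp2 lay between -0.30 and 0.03 in the 4 comparisons.

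The other genes of the pathway were described by lists. Of 18 other genes with TOP mRNAs, which include the elongation factors, 8 were lower in FIH-KO normoxia and 6 in FIH-KO hypoxia, and 0 were higher (medians -0.36 and -0.27). These were 44.4% and 33.3% lower, against 13% and 13.9% of all tested genes, of which 15.2% and 14.1% were higher. Npm1, a nucleolar chaperone, had the values -1.03 (SE 0.13, adjusted p = 0.00021) and -0.74 (SE 0.13, adjusted p = 0.0017), and Eef1g, a subunit of elongation factor 1, -0.77 and -0.54. Of the other elongation factors listed, Eef1b2 and Eef1d were lower in normoxia. Eef1a1 (-0.17 and 0.02) and Eef2 (0.13 and 0.06) were not called in either condition. With hypoxia in WT cells 3 of the 18 rose and 4 fell, among them the non-coding host genes Gas5 (1.48, SE 0.23, adjusted p = 6e-04) and Snhg1 (1.61, SE 0.19, adjusted p = 0.00012), which rose. The shares, 16.7% and 22.2%, were near those of all tested genes, 16.9% and 15.5%.
Of 14 chaperones and importers of ribosomal proteins, 8 were lower in FIH-KO normoxia and 5 in FIH-KO hypoxia, and 0 were higher (medians -0.49 and -0.33). These were 57.1% and 35.7% lower, against the same 13% and 13.9% of all tested genes. The importers Ipo5 (-0.78, SE 0.12, adjusted p = 0.00071) and Ipo7 (-0.71, SE 0.12, adjusted p = 0.0012) were among those that fell in normoxia. Of 15 regulators of mTORC1 and TOP mRNAs, 3 were higher and 4 lower in FIH-KO normoxia, or 20% and 26.7%, against 15.2% and 13% of all tested genes. In FIH-KO hypoxia 2 were higher and 1 lower (13.3% and 6.67%, against 14.1% and 13.9%). Larp1, which binds TOP mRNAs, fell in normoxia (-0.71, SE 0.13, adjusted p = 0.0016) and in hypoxia (-0.71, SE 0.13, adjusted p = 0.0016), and Ddit4, an inhibitor of mTORC1, rose in FIH-KO normoxia (1.55, SE 0.19, adjusted p = 0.00018) and with hypoxia in WT cells (2.48, SE 0.20, adjusted p = 8.9e-06). The fusion gene Fau was not called in any comparison.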

How the data were processed

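RNA-Seq libraries from poly(A)-selected RNA (stranded, paired-end) were demultiplexed with bcl2fastq, aligned with STAR and counted with HTSeq by the authors, and the deposited values are raw counts per gene. The methods name GRCm39, the submitters' processing notes also name GRCm38, and the strand setting is not given in the sources used here. Counts were tested with edgeR 4.0.16 in R 4.3.3: filterByExpr by group (13933 genes kept), TMM, quasi-likelihood tests of contrasts between the 4 group means, fitted on all 8 libraries (totals 14519731 to 18177016), and Benjamini-Hochberg adjustment over all tested genes with a threshold of 0.05. The common coefficient of variation between libraries was 11.7%. The script was tested on simulated data. DESeq2 1.42.0 and other scalings, filters and library sets were alternatives. Positions and coding lengths came from GENCODE M39, start sequences from RefSeq.

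The members, the lists and the rules were chosen with earlier results of these data known. Named were up to 6 members that rose and 6 that fell in each comparison with the smallest adjusted p, paralog pairs, members with textbook roles, and members on chromosomes 3, 19 and X, which had none on chromosome 19. Values of some members and related genes are not reported here.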

Additional observations from a re-analysis of the deposited data

How the results depend on the processing

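Scaled to the total of the ribosomal protein genes, members called lower numbered 2 in FIH-KO normoxia, 1 in FIH-KO hypoxia, 1 with hypoxia in WT cells and 0 with hypoxia in FIH-KO cells, members called higher numbered 3 in FIH-KO hypoxia and 0 with hypoxia in FIH-KO cells, and the medians were 0.00072 in FIH-KO normoxia and 0.0353 for the difference between oxygen conditions. By construction this scaling holds the total of the members fixed and so moves the medians of the members and of all tested genes. The median of all tested genes moved to 0.16 in FIH-KO normoxia and 0.13 with hypoxia in WT cells. Of all tested genes, this scaling called 598 lower in FIH-KO normoxia and 1098 in FIH-KO hypoxia. With hypoxia it called 662 lower in WT cells and 472 in FIH-KO cells. It called 1346 higher in FIH-KO hypoxia and 731 with hypoxia in FIH-KO cells. With no filter on low counts 10 members were higher in FIH-KO hypoxia, and 15 were lower with hypoxia in WT cells and 2 in FIH-KO cells. With only the 4 libraries compared, 2 members were higher and 1 lower in FIH-KO hypoxia, 19 were lower with hypoxia in WT cells, and 0 were called in either direction with hypoxia in FIH-KO cells. DESeq2 called 13 members lower with hypoxia in WT cells and 3 in FIH-KO cells, beside 2109 of 13968 and 1113 of 12557 genes. For the other alternatives the shares over all genes are not given here. The cause of these changes was not tested.

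The replicate numbers are not known to pair the libraries: the correlation of the differences between replicates lay between -0.0133 and 0.243 over the 4 comparisons, each with 2 pairs. Most members were nonetheless higher in replicate 1 in FIH-KO normoxia, WT hypoxia and FIH-KO hypoxia (74, 77 and 76 of 81), but not in WT normoxia (40). With the replicate block in the fit, 7 members were lower in FIH-KO hypoxia and 12 with hypoxia in WT cells, and the other counts stayed within 1.5 times.

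With each library left out in turn, the members called lower ranged from 4 to 8 in FIH-KO normoxia, from 1 to 9 in FIH-KO hypoxia, from 1 to 7 with hypoxia in WT cells and from 0 to 2 in FIH-KO cells. The members called higher ranged from 0 to 12 in FIH-KO hypoxia and from 0 to 3 with hypoxia in FIH-KO cells. The medians ranged from -0.131 to 0.166 in FIH-KO hypoxia, from -0.0971 to 0.171 with hypoxia in FIH-KO cells and from 0.101 to 0.344 for the difference. The share of reads in WT normoxia was 6.35% over protein-coding reads alone and 6.33% with pseudogenes added. RLE and upper-quartile factors, scaling without the members and a minimum of 10 counts changed no count by over 1.5 times. No named member that was called changed direction under any alternative run. At 2 libraries a group, changes the size of the offset between libraries of a group (0.15 to 0.31 on the log2 scale) were mostly not detectable.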

Other observations

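Rows of ribosomal protein pseudogenes, which the comparisons above leave out, took 0.0313% to 0.0472% of the reads of a library. Of 314 such rows 129 passed the filter on low counts, with 1 called lower in FIH-KO normoxia (Rps3a3, -0.84, adjusted p = 0.037, named after its value was seen) and 0 called in the other comparisons in edgeR, while 6, 0, 3 and 3 had an unadjusted p under 0.05 in the order FIH-KO normoxia, FIH-KO hypoxia, hypoxia in WT cells and hypoxia in FIH-KO cells. The share called lower in FIH-KO normoxia was 0.775%, against 13% of all tested genes, of which 15.2% were higher. In that comparison 5505 of the 13933 tested genes had an unadjusted p under 0.05. Most pseudogene rows had low counts, and the part of this in the few calls was not tested. DESeq2 called 0 of these rows in any comparison. Their median log2 fold change was -0.158 in FIH-KO normoxia, with 84 of 129 below 0, beside -0.164 for the members. In FIH-KO hypoxia it was -0.135, with 81 below 0, beside 0.00369 for the members. Between libraries of a group, 113 of the 129 rows were higher in replicate 1 in FIH-KO hypoxia (median 0.42 on the log2 scale), 100 in WT hypoxia (0.22) and 90 in FIH-KO normoxia (0.11), groups in which the genes were higher in replicate 1 too. In WT normoxia 78 rows were higher in replicate 1 (0.07), where the genes showed no offset.

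Members with at least 88% of their 50-base coding stretches found elsewhere in the genome stood at a median of -0.19 (log2 fold change) in FIH-KO normoxia and -0.22 with hypoxia in WT cells, and the others -0.14 and -0.13. The 41 tested members with the hypoxia-response core at the start had medians of -0.06 in FIH-KO hypoxia and -0.13 with hypoxia in WT cells. The 20 tested members without it had 0.12 and -0.22. In FIH-KO normoxia the medians were -0.188 with the core and -0.135 without it. There 8 members with the core (19.5%) and 1 without it (5%) were called lower, against 13% of all tested genes. Those with the core include all the chromosome 3 members, Rpl22l1, Rps27, Rpl34 and Rps3a1. Of the other tested genes on chromosome 3, 35.1% were lower. The core and the chromosome cannot be told apart in these calls, and a link to the core was not tested.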
